A study of Rattus norvegicus with 12 samples.

Results

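The expression of 10 genes that control fatty acid oxidation and mitochondrial content was examined in the left ventricle of 12 male Sprague-Dawley rats. The genes were Ppara, Ppard and Pparg (the peroxisome proliferator-activated receptors, PPARs), Rxra (retinoid X receptor alpha), Ppargc1a and Ppargc1b (the PGC-1 coactivators), Esrra, Esrrb and Esrrg (the estrogen-related receptors, ERRs) and Tfam (mitochondrial transcription factor A). They were taken by their symbols and make up 10 of the 34700 genes in the table. Each symbol matched a row, and all 10 passed the filter on low counts in each comparison. The rats were operated on at 8 weeks of age and fell into 4 groups of 3. In the Sham group the left anterior descending coronary artery was threaded without ligation. In the HF group (heart failure after infarction) the artery was ligated and the rats stayed sedentary. The HFE rats had the same ligation and ran on a treadmill for 60 min per day on 5 days per week over 8 weeks, and the BAIBA rats had the ligation and received β-aminoisobutyric acid (BAIBA), a small molecule that muscle releases during exercise, by gavage at 75 mg/kg per day over 8 weeks. Hearts were collected 12 weeks after surgery. RNA came from the anterior wall of the left ventricle, and the study places the tissue of the HF and BAIBA rats around the infarction (its methods name that area for BAIBA alone). Where the piece of tissue differed between groups, it and the condition cannot be told apart.

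PPARs are nuclear receptors that are switched on by fatty acids. They bind DNA as partners of RXR and drive genes for the uptake and oxidation of fatty acids, on which the adult heart depends for most of its energy. PGC-1α and PGC-1β do not bind DNA themselves but dock onto PPARs, ERRs and nuclear respiratory factors and raise their activity. ERRs resemble estrogen receptors but respond to no natural estrogen, and in heart muscle they drive genes of the respiratory chain. TFAM is the end of this chain, a nuclear-encoded protein that packs mitochondrial DNA and starts its transcription.

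Total counts on genes ranged from 14812541 to 19732588 per rat. Markers of heart muscle were high in all 12 hearts, with between 9127 and 19603 CPM for Myh6, the alpha myosin heavy chain. Unless stated otherwise, CPM are read counts normalised to library size after adjustment of that size by TMM scaling factors. The summed CPM of 8 cardiomyocyte markers was 50429 to 52166 in the Sham group, 43098 to 45362 in the HF group, 44211 to 50189 in the HFE group and 43358 to 50595 in the BAIBA group. BAIBA rat 1 stood apart in 6 macrophage markers, which summed there to 919 CPM against 82.4 to 209.8 CPM in the other 11 rats. In bulk tissue, fewer cells of a type and less RNA per cell cannot be told apart. The labels number the rats of a group, and p-values measure the spread between these samples.

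Start-site sequences are shown for the 4 members in which a window of 250 bases before to 50 bases after the start held an element of an activator named here. RefSeq on the rat build GRCr8 had windows for 9 of the 10 members (13 windows, since some members have more than 1 start), and Ppard was not among them. The bases before the start are printed 5′ to 3′ on the strand of the gene, with the element in capitals. The CRE, where cyclic AMP-responsive factors bind, is TGACGTCA. The core of the site for nuclear respiratory factor 1 (NRF1) is GCATGCGC, and the ETS core bound by GABP is CCGGAAG. The windows are at chr14:63634058-63634307 (plus strand) for Ppargc1a, chr7:118712357-118712606 (plus) for Ppara, chr1:213543306-213543555 (minus) for Esrra and chr20:17355123-17355372 (plus) for Tfam. The Tfam window ends at the base before the gene, and the Esrra window spans the annotated beginning of the gene. The windows of Ppargc1a and Ppara lie inside the annotated gene. The starts used for Ppargc1a, Ppara and Esrra are thus internal ones.
Ppargc1a: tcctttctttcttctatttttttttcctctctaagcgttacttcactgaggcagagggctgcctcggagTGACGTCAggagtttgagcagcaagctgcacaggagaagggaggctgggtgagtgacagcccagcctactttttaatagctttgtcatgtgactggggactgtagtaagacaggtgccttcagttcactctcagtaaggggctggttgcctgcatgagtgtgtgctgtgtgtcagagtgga
Ppara: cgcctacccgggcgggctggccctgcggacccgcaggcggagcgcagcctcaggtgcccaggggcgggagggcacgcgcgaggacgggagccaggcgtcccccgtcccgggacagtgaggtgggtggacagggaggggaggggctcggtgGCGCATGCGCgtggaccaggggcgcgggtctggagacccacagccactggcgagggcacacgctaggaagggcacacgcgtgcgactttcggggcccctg
Esrra: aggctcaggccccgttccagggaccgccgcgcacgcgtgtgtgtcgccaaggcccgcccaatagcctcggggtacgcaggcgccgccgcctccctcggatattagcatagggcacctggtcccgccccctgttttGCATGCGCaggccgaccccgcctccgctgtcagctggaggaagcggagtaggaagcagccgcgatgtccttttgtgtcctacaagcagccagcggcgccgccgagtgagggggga
Tfam: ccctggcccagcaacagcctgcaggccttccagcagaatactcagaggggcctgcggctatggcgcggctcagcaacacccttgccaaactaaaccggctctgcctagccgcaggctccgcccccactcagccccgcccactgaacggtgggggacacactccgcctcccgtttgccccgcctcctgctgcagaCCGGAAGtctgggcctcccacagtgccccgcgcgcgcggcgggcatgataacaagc

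The CRE of Ppargc1a began at position -181 relative to the start, and its letters read the same on both strands. It was in 1.83% of the 33469 RefSeq windows of this length. In Ppara the NRF1 core occurred on both strands at the overlapping positions -100 and -98, and in Esrra it occurred at -115, while 2.47% of windows held it. The ETS core of Tfam lay at -56 and was in 8.75% of windows. The ERR element TCAAGGTCA (0.433% of windows) and a direct repeat of AGGTCA with 1 base between (0.0538% of windows), the form bound by a PPAR with its RXR partner, were in no window of these members. The single half-site AGGTCA was in 1 of the Esrrg windows and in 16.2% of all windows. A match describes the letters and not binding, and both strands were searched.

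The members were compared with each other per length, as FPKM (fragment counts scaled to gene length and library size). Esrra was the highest, with a mean of 37.2 ± 6.39 FPKM (SD, n = 12), at percentile 92.6 of the genes with at least 0.1 FPKM. Tfam followed at 26.4 ± 2.45 FPKM and Rxra at 15.0 ± 2.18 FPKM. Esrra exceeded Tfam in 12 of 12 rats and Tfam exceeded Rxra in 12 of 12. Below these lay Esrrg at 11.6 ± 1.32, Ppara at 10.3 ± 2.75, Ppargc1a at 9.62 ± 1.81 and Ppard at 9.48 ± 1.38 FPKM. Esrrg was above Ppara in 8 of 12 rats, Ppara above Ppargc1a in 7 and Ppargc1a above Ppard in 6, so the order within this set was not larger than the spread between rats. Ppargc1b (5.55 ± 1.12 FPKM) was below Ppard in 12 of 12 rats. Esrrb at 4.54 ± 1.26 and Pparg at 2.95 ± 0.665 FPKM were the lowest, and Pparg lay at percentile 49.1. Within families, Ppara and Ppard were the more abundant PPARs of this tissue, Esrra and Esrrg the more abundant ERRs, and Ppargc1a the more abundant coactivator.

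**Figure D1:**
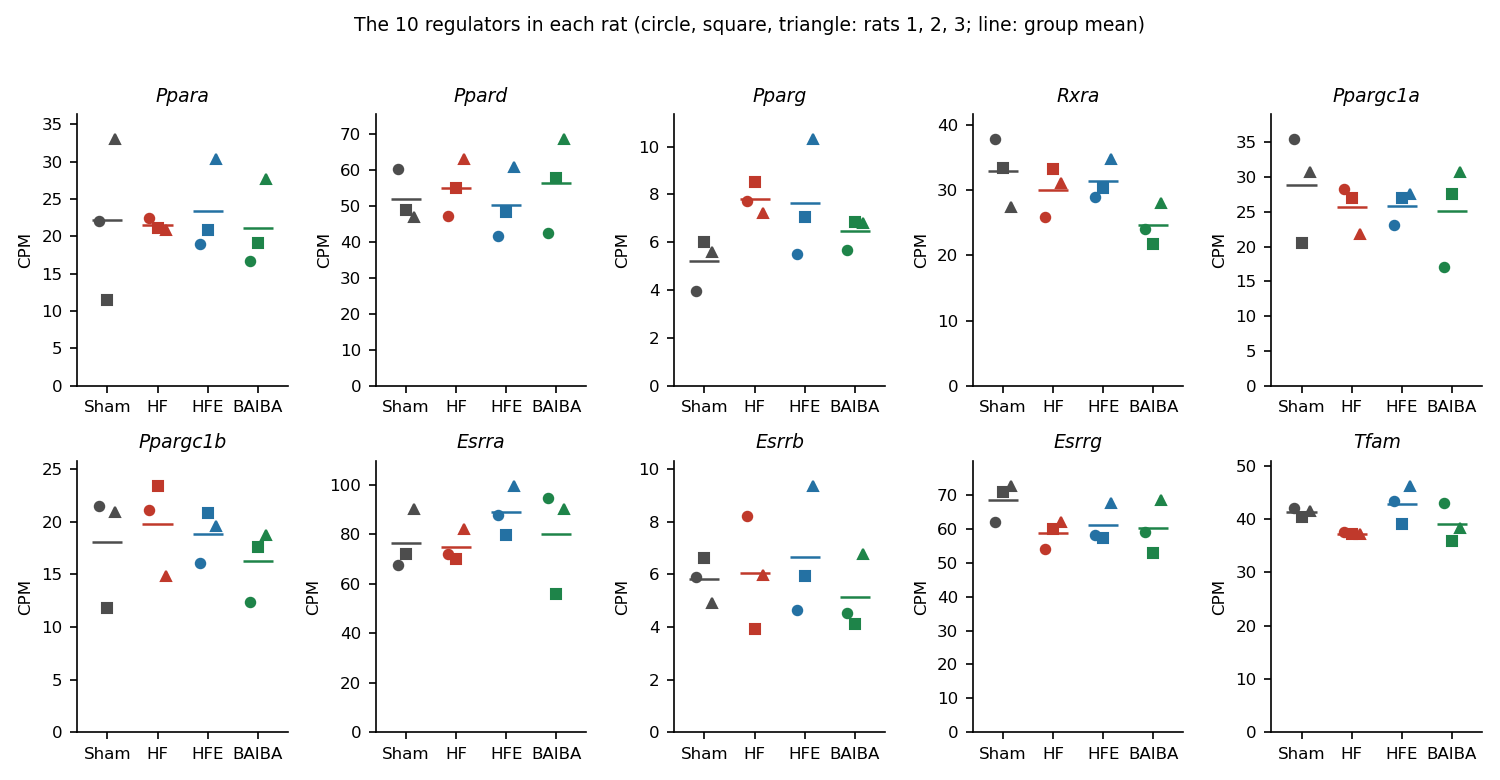
Read counts normalised to TMM-adjusted library size (CPM) of the 10 regulators in the left ventricle. Each point is 1 rat and each line is the group mean (n = 3 rats per group). Pparg in the HF group (7.20 to 8.53 CPM) lies above all Sham rats, Rxra in the BAIBA group (21.7 to 28.0 CPM) lies below all HFE rats, and Ppara spreads widely in the Sham group (11.5 to 33.0 CPM).

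To assess the effect of infarction, exercise and BAIBA, each pair of groups was compared with edgeR's quasi-likelihood test over all genes, and a gene was called at a Benjamini-Hochberg adjusted p under 0.05. None of the 10 members was called in any of the 6 comparisons, and DESeq2 called none of them either. Over the 60 combinations of member and comparison, the lowest adjusted p was 0.440, for Rxra in BAIBA against HFE. The differences were small, with a median size of 0.13 and a largest size of 0.59 on the log2 scale. Their 95% confidence intervals stayed within a 2-fold difference in either direction in 56 of the 60 cases, and 4 of the 60 excluded 0 before correction. The intervals that reached past a 2-fold difference belonged to Pparg (HF and HFE against Sham), Ppara (HFE against Sham) and Esrrb (BAIBA against HFE), and the farthest end was a 2.24-fold difference for Pparg. For Esrrg and Tfam no interval reached past a 1.37-fold and a 1.33-fold difference, respectively.

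The background for these counts was low as well. In HF against Sham, HFE against HF and HFE against Sham edgeR called 0% of the genes tested, as it did in BAIBA against HF, and it called 0.0402% (6 of 14920) in BAIBA against Sham and 0.108% (16 of 14844) in BAIBA against HFE. In BAIBA against HFE the replicate numbers were taken to pair the rats in an alternative fit, from correlations in these same data. The values given for this comparison come from the fit without pairing, unless a block is named. The labels do not say what a number marks. With the number as a block 50 genes were called, again with 0 members. In a single test for any difference among the 4 groups, edgeR called 0% of 15617 genes and DESeq2 called 335, with 0 members by either tool. At an unadjusted p under 0.05 that test held 1517 genes (9.71%) and 0 members. Unadjusted, edgeR passed 2 of the 10 members in HF against Sham (Pparg and Esrrg), beside 898 of all genes tested (6%). It passed 1 in BAIBA against HFE and 1 in BAIBA against Sham (Rxra in both), beside 1420 (9.57%) and 1106 genes (7.41%). In the other comparisons it passed 0 members, beside 834 to 1656 genes (5.55% to 11.2%).

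**Figure D2:**
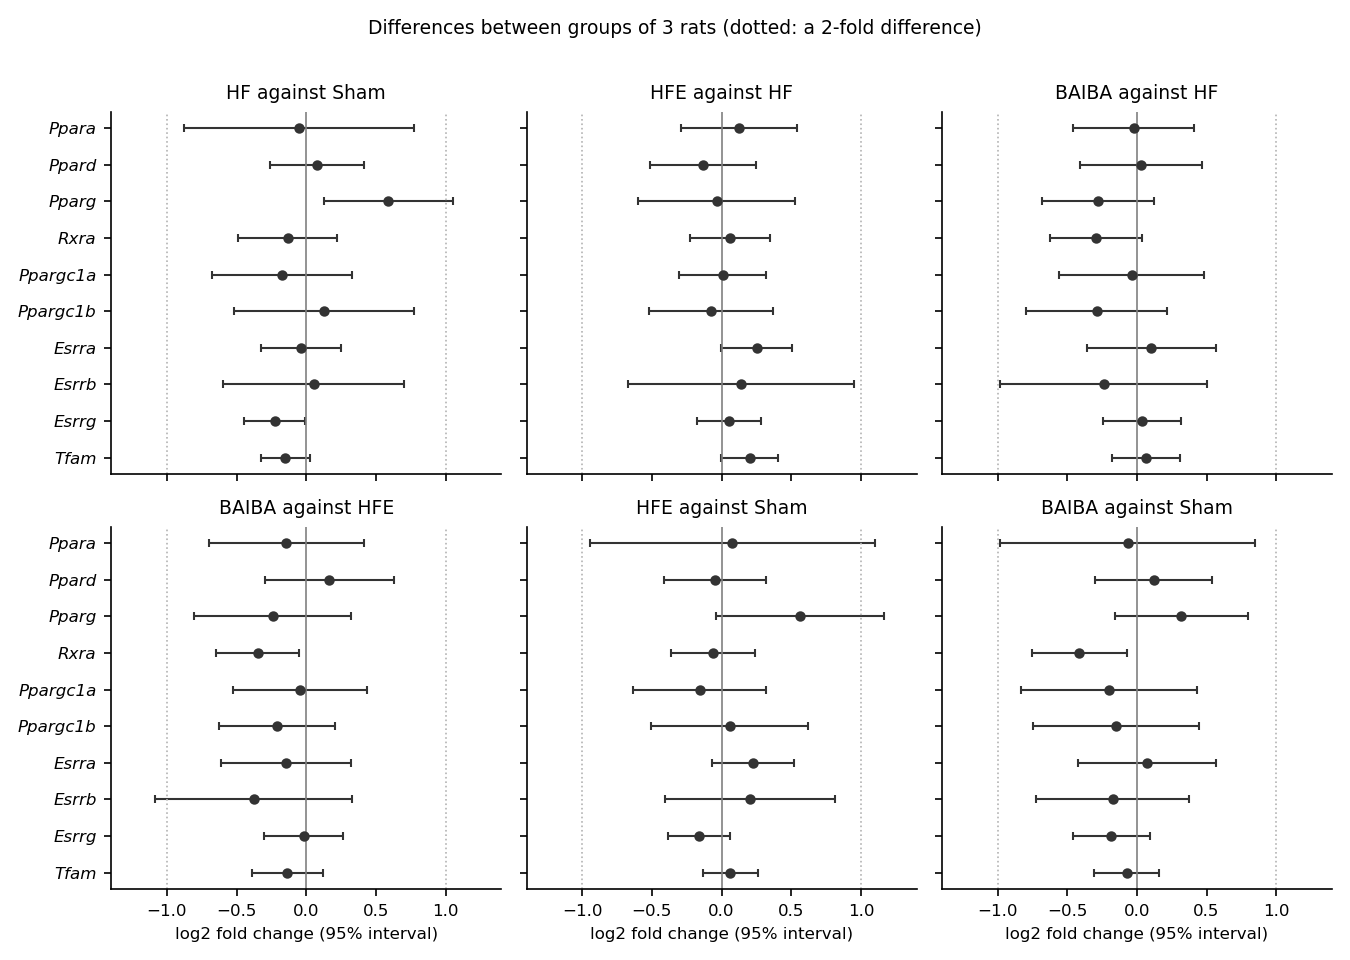
Log2 fold changes of the 10 regulators in the 6 comparisons of 3 rats against 3, with 95% confidence intervals from edgeR's quasi-likelihood fit (x axis) and dotted lines at a 2-fold difference. The points lie within 0.59 of 0, and 4 of the 60 intervals, for Pparg and Esrrg in HF against Sham and for Rxra in BAIBA against HFE and against Sham, lie on 1 side of 0.

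Among the PPARs, Pparg, which directs fat cell formation and lipid storage and is scarce in heart muscle, differed most between groups. Its level was 3.98, 6.03 and 5.58 CPM in the Sham rats, 7.74, 8.53 and 7.20 in the HF rats, 5.53, 7.06 and 10.3 in the HFE rats and 5.69, 6.86 and 6.81 in the BAIBA rats. Every HF rat was above every Sham rat and above every BAIBA rat, whereas the HFE rats spanned both. The difference between HF and Sham was 0.59 on the log2 scale (SE 0.20, 95% interval 0.13 to 1.05), and it lay between 0.44 and 0.71 with any single rat removed. It did not pass correction (adjusted p = 0.805 by edgeR and 0.698 by DESeq2, and two-sided exact permutation p = 0.1, the smallest that 3 rats against 3 can give). The HFE group was higher than Sham by 0.56 (SE 0.26, adjusted p = 0.476) and the BAIBA group lower than HF by 0.28 (log2 fold change -0.28, SE 0.17, adjusted p = 0.852). These comparisons share the Sham or the HF rats. Pparg rested on 69 to 163 counts per rat.

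Markers of fat cells are given beside these values. The summed CPM of 8 adipocyte markers was 331 to 482 in the Sham group and 411 to 630 in the HF group. Nearly all of it was Fabp4, a fatty acid carrier that capillary endothelium also makes, at 327 to 469 CPM in the Sham and 380 to 625 CPM in the HF group. Adipoq (adiponectin) and Plin1, which are restricted to fat cells, were at 0 to 3.55 and 0.065 to 1.64 CPM in the Sham group and at 0.061 to 12.4 and 0 to 4.64 CPM in the HF group. Ucp1 was at 0 to 0.066 CPM in these groups. Across the 12 rats, with group means removed, Pparg and the adipocyte sum had a rho of 0.47 and an r of 0.41 (exact permutation p = 0.0995, or 0.496 when adjusted). Pparg had r of larger size with fibroblast and scar markers (-0.64) and with cardiomyocyte and endothelial markers (0.51 each), and none of these passed correction. On the FPKM scale r was -0.64 for fibroblast and scar, 0.14 for cardiomyocyte, 0.42 for endothelial and 0.31 for adipocyte markers. The part of fat cells and other cell types in the Pparg difference was not tested.

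Ppara, the main driver of fatty acid oxidation in heart muscle, had nearly equal group means but the widest spread within a group. Its values were 22.0, 11.5 and 33.0 CPM in the Sham rats, 22.4, 21.0 and 20.9 in the HF rats, 18.9, 20.9 and 30.3 in the HFE rats and 16.7, 19.1 and 27.6 in the BAIBA rats. The highest and the lowest value of all 12 were both Sham rats, 2.86-fold apart, while the HF rats differed by 1.07-fold and the group means by 1.11-fold. HF differed from Sham by -0.05 on the log2 scale, with an interval from -0.88 to 0.77. The difference between BAIBA and HF was -0.02 (-0.46 to 0.41).

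Ppard, which is widely expressed and overlaps with Ppara in its targets, ranged from 46.8 to 60.3 CPM in the Sham, 47.3 to 63.0 in the HF, 41.7 to 60.8 in the HFE and 42.4 to 68.7 CPM in the BAIBA group. All 4 ranges overlapped. Its largest difference was 0.17 on the log2 scale between BAIBA and HFE (SE 0.20, adjusted p = 0.856).

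Rxra, the common partner that lets PPARs bind DNA, was lowest in the BAIBA group. It was at 37.8, 33.3 and 27.4 CPM in the Sham rats, 25.9, 33.2 and 31.1 in the HF rats, 29.0, 30.3 and 34.8 in the HFE rats and 24.0, 21.7 and 28.0 in the BAIBA rats. The BAIBA rats lay below all HFE rats, and overlapped the Sham and HF rats by 1 rat in each case. BAIBA differed from HFE by -0.35 (SE 0.13, interval -0.65 to -0.05, adjusted p = 0.440, exact permutation p = 0.1), from Sham by -0.41 (SE 0.15, adjusted p = 0.630) and from HF by -0.29 (SE 0.14, adjusted p = 0.851). With the replicate number as a block, which was taken to pair BAIBA with HFE rats, the adjusted p of BAIBA against HFE was 0.259. Among all members Rxra also had the lowest adjusted p in the test over the 4 groups (0.537), followed by Pparg (0.564). The other RXR genes also had negative values in BAIBA against HFE, at -0.10 for Rxrb (SE 0.11) and -0.02 for Rxrg (SE 0.10), which were picked for mention after their values were seen, and the difference between the RXR genes was not tested. BAIBA rat 1, whose macrophage markers were high, held the middle of the 3 values, and without BAIBA rats 1, 2 or 3 in turn, or an HFE rat, the difference was -0.45 to -0.27.

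The counts of members without overlap were close to those of other genes. In HF against Sham 2 of the 10 members did not overlap (Pparg and Tfam) beside 11.8% of all genes tested, in HFE against HF 1 (Tfam) beside 14.4%, in BAIBA against HF 1 (Pparg) beside 11.4%, in BAIBA against HFE 1 (Rxra) beside 15.5%, and in HFE and BAIBA against Sham 0 beside 17.7% and 12.7%.

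The coactivators were examined next. Ppargc1a, which is induced by exercise, cold and fasting in muscle, was at 35.5, 20.5 and 30.7 CPM in the Sham rats, 28.2, 27.1 and 21.8 in the HF rats, 23.0, 27.0 and 27.5 in the HFE rats and 17.0, 27.5 and 30.7 in the BAIBA rats. All 4 groups overlapped, and the HFE rats were not above the sedentary HF rats. HFE differed from HF by 0.0091 on the log2 scale (SE 0.13, interval -0.30 to 0.32) and BAIBA from HF by -0.04 (SE 0.22, interval -0.56 to 0.48). HF was lower than Sham by 0.17 (log2 fold change -0.17, SE 0.21, adjusted p = 0.918). Ppargc1b, its close relative, was at 21.5, 11.8 and 20.9 CPM in the Sham rats, 21.2, 23.4 and 14.9 in the HF rats, 16.04, 20.8 and 19.6 in the HFE rats and 12.4, 17.6 and 18.8 in the BAIBA rats. Its largest difference was -0.29 for BAIBA against HF (SE 0.22, interval -0.79 to 0.22, adjusted p = 0.862).

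The levels of the coactivators were also compared from rat to rat. In each group the same rat was the lowest for both genes (Sham rat 2, HF rat 3, HFE rat 1 and BAIBA rat 1), and 12 of 12 rats lay on the same side of their group mean for both. With group means removed, r was 0.93, with an exact permutation p of 0.00463 that became 0.319 after adjustment. By ranks the same relation gave a rho of 0.73, at 0.0293 by exact permutation and p = 0.440 once adjusted. Pearson's r was 0.88 without the 2 rats farthest from the median, and 0.89 to 0.95 with each rat left out. Among the 8 rats above their group means for both genes it was 0.45. Marker sums varied over the same rats. Fibroblast and scar markers had r = -0.67 with Ppargc1a and -0.63 with Ppargc1b, and cardiomyocyte markers had r = 0.64 and 0.55 (adjusted p = 0.319 for each of the 4 by permutation). On the FPKM scale r was -0.60 and -0.53 for fibroblast and scar markers, and -0.22 and -0.05 for cardiomyocyte markers. The part of tissue composition in the relation of the coactivators was not tested. The ratio of Ppargc1a to Ppargc1b in CPM ranged from 1.15 to 1.74 over the 12 rats. Ppara had r = 0.71 with Ppargc1a and 0.73 with Ppargc1b (adjusted p = 0.320 and 0.319), and the 4 rats low for the coactivators were below their group means for Ppara as well.

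**Figure D3:**
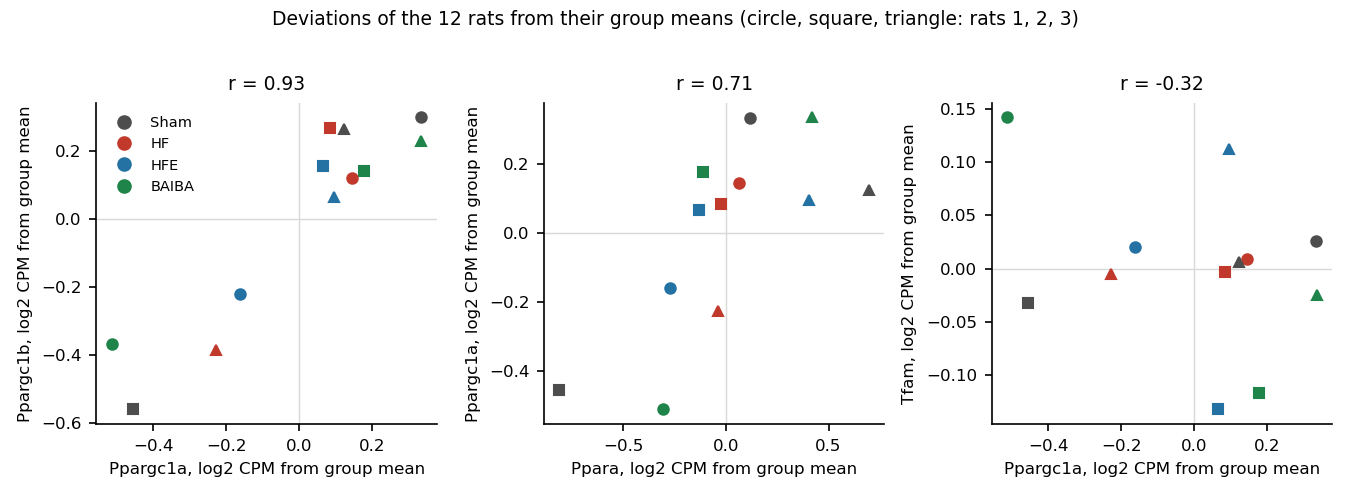
Log2 CPM of 3 pairs of regulators as the deviation of each of the 12 rats from its group mean, coloured by group. Ppargc1a and Ppargc1b lie along a diagonal (r = 0.93), Ppara follows Ppargc1a more loosely (r = 0.71), and Tfam and Ppargc1a have r = -0.32, where none of these passed correction over 105 relations.

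In total, 105 relations were computed, 45 between members and 60 between a member and the summed level of a target or marker list. None passed correction by r or by rho (lowest adjusted p = 0.319 and 0.385), and 15 had an unadjusted exact permutation p under 0.05 for r. Of the 45 pairs of members 36 had a positive r, with a median of 0.23. Esrrg and the summed PGC-1 and ERR target genes had r = 0.78 (exact permutation p = 0.0123, adjusted p = 0.319; 0.64 without 2 rats). Ppard and the summed PPAR target genes had r = 0.77 (exact permutation p = 0.00694, adjusted p = 0.319), which was 0.41 on the FPKM scale. Similar values were found for Ppard with cardiomyocyte markers (r = 0.75) and with the PGC-1 and ERR targets (r = 0.71). On the FPKM scale these 2 were -0.63 and 0.17. By contrast, Ppargc1a and Ppargc1b had r = 0.15 and -0.04 with the PGC-1 and ERR targets, and Ppara had r = 0.35 with the PPAR targets.

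Among the ERRs, Esrra, which PGC-1α both binds and induces, was at 67.5, 72.0 and 90.2 CPM in the Sham rats, 72.2, 69.9 and 82.1 in the HF rats, 87.7, 79.9 and 99.7 in the HFE rats and 94.6, 56.0 and 90.1 in the BAIBA rats. The HFE group had the highest mean, but its lowest rat was below the highest HF rat. The difference between HFE and HF was 0.25 (SE 0.11, interval -0.0022 to 0.51, adjusted p = 0.648). BAIBA rat 2 was the lowest of the 12, and BAIBA differed from HF by 0.10 (SE 0.20, interval -0.36 to 0.56).

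Esrrg, the ERR that is most typical of oxidative muscle, was higher in the Sham group than in the others on average. It was at 61.9, 70.9 and 72.7 CPM in the Sham rats, 54.1, 59.8 and 61.9 in the HF rats, 58.2, 57.1 and 67.6 in the HFE rats and 59.0, 52.7 and 68.5 in the BAIBA rats. The highest HF rat and the lowest Sham rat were nearly equal. HF differed from Sham by -0.23 (SE 0.09, interval -0.45 to -0.0068, adjusted p = 0.805, exact permutation p = 0.2), and leaving out each rat gave -0.29 to -0.17. Esrrb, which is best known from stem cells and placenta, was low, at 3.93 to 9.37 CPM over the 12 rats. It differed by 2.09-fold among the HF rats alone and by 1.30-fold between the highest and lowest group means.

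Tfam showed the smallest spread between rats of all members, 1.29-fold from the lowest to the highest of 12 and 1.01-fold among the HF rats (1.11-fold in FPKM). It was at 42.0, 40.3 and 41.4 CPM in the Sham rats, 37.5, 37.2 and 37.1 in the HF rats, 43.4, 39.0 and 46.3 in the HFE rats and 42.9, 35.9 and 38.2 in the BAIBA rats. In CPM the HF rats lay below all Sham and all HFE rats, and within the range of the BAIBA rats. HF differed from Sham by -0.15 (SE 0.08, interval -0.33 to 0.03, adjusted p = 0.808) and HFE from HF by 0.20 (SE 0.09, interval -0.003 to 0.41, adjusted p = 0.648), both with an exact permutation p of 0.1. The separation of HFE from HF was not seen in CPM scaled by library size alone or in FPKM, where these groups overlapped. The sum of the cardiomyocyte markers was lower in all HF than in all Sham rats, as given above. This lay mainly in Myh6 (log2 difference -0.62). Pln and Ryr2 were also lower in HF, by -0.24 each (SE 0.09 and 0.26), whereas Actc1, Tnnt2, Tnni3, Mb and Myl2 differed by -0.05 to 0.08. Myh6 was 17422 to 19603 CPM in the Sham and 11252 to 13878 CPM in the HF group. It was 9127 to 13299 CPM in the HFE group, whose Tfam values in CPM were above those of HF. Over the 12 rats with group means removed, the cardiomyocyte sum had r = -0.61 with Tfam and 0.04 with Esrrg. On the FPKM scale these were 0.31 and 0.18. The endothelial sum had r = -0.67 and a rho of -0.81 with Tfam, and r = -0.79 in FPKM. In CPM none of these passed correction. The part of the cardiomyocyte content in the Tfam and Esrrg values was not tested.

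The neighbours of these regulators were read from 4 lists. None of their genes was called by edgeR in any comparison or in the test over the 4 groups. Of the partners and coregulators (20 listed, 18 tested), 3 had the smallest p over the 4 groups. Lpin1, a phosphatase that also acts as a coactivator of Ppara with PGC-1α, was at 66.5 ± 6.88 CPM in the Sham, 54.9 ± 7.68 in the HF, 45.8 ± 3.33 in the HFE and 48.0 ± 8.23 CPM in the BAIBA group (SD, n = 3; adjusted p = 0.374). All HFE rats were below all Sham rats, at a log2 difference of -0.53 (SE 0.10, adjusted p = 0.165), which DESeq2 called (adjusted p = 0.00797). Perm1, a muscle factor induced by PGC-1 and ERRs, was at 291.9 ± 12.6 CPM in the Sham, 238 ± 17.6 in the HF, 287 ± 20.6 in the HFE and 278 ± 26.7 CPM in the BAIBA group (adjusted p = 0.473). The HF rats (223 to 257 CPM) lay below all rats of the other groups in CPM. In FPKM they lay below the Sham rats only, since HF rat 1 (70.1) was above HFE rat 2 (65.1) and BAIBA rat 2 (65.3). Pprc1, the member of the PGC-1 family that responds to growth signals, was at 21.0 ± 0.664, 17.9 ± 0.995, 21.1 ± 3.40 and 17.5 ± 1.04 CPM in the same order (adjusted p = 0.537).

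Of the 13 genes of mitochondrial DNA transcription and replication, on which TFAM acts, those with the smallest p were Tefm (the elongation factor), Polrmt (the mitochondrial RNA polymerase) and Tfb2m (a transcription initiation factor). Tefm was at 21.0 ± 0.730 CPM in the Sham, 18.2 ± 0.924 in the HF, 23.1 ± 3.33 in the HFE and 18.6 ± 1.83 CPM in the BAIBA group (adjusted p = 0.504). Its 3 HF rats (17.2 to 18.8 CPM) lay below all Sham and all HFE rats in CPM, but in FPKM HF rat 1 (13.1) was above HFE rat 3 (12.7), so that, as for Tfam, only the separation from Sham was seen on both scales. Polrmt was at 32.0 ± 3.54, 29.0 ± 2.49, 33.4 ± 1.86 and 28.1 ± 3.48 CPM, and Tfb2m at 49.5 ± 6.19, 45.4 ± 4.74, 49.3 ± 2.62 and 54.6 ± 5.17 CPM, with overlap between HF and Sham for both.

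Of the PPAR target genes 25 of 25 were tested. The median difference between HF and Sham was 0.13 over the list and 0.0088 over all genes tested, with 21 genes higher and 4 lower. Angptl4, a secreted inhibitor of lipoprotein lipase, was at 0.115, 0.972 and 1.44 CPM in the Sham rats, 1.15, 10.4 and 17.8 in the HF rats, 1.13, 0.415 and 0.760 in the HFE rats and 3.29, 3.53 and 2.47 in the BAIBA rats. Pdk4, the kinase that turns off pyruvate oxidation, was at 83.0, 57.0 and 133 CPM in the Sham rats, 69.1, 343 and 709 in the HF rats, 47.5, 38.1 and 98.4 in the HFE rats and 108, 228 and 209 in the BAIBA rats. HF rats 2 and 3 were the highest of the 12 for both genes, and HF rat 1 lay among the Sham rats for both.

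Between BAIBA and HFE, 9 of the 25 PPAR targets had groups without overlap, the most of the 6 comparisons, beside the 15.5% of all genes given above. The median difference was 0.08 over the list and 0.00049 over all genes, with 16 genes higher and 9 lower in the BAIBA group. At an unadjusted p under 0.05 there were 7 higher and 1 lower, beside 9.57% of all genes in either direction. In BAIBA against HF, 1 of the 25 had groups without overlap, beside 11.4% of all genes. The median there was 0.010, with 13 genes higher and 12 lower, and 0 passed unadjusted, beside 5.55% of all genes. The count without overlap was 2 in HF against Sham, 5 in HFE against HF, 5 in HFE against Sham and 6 in BAIBA against Sham. These stood beside 11.8%, 14.4%, 17.7% and 12.7% of all genes. Marker lists of cell types differed in both directions between the BAIBA and HFE groups. The median log2 difference was 1.03 for adipocyte markers (3 of 3 tested higher) and 0.99 for macrophage markers (6 of 6). It was 0.45 for fibroblast and scar markers (7 of 7) and 0.62 for erythroid markers (5 of 5). The median was -0.15 for endothelial markers (3 of 5 tested lower), -0.12 for cardiomyocyte markers (6 of 8) and -1.73 for atrial markers (3 of 3). The part of these cell types in the PPAR target values was not tested. Of the adipocyte, macrophage, fibroblast and erythroid markers edgeR called 0, and DESeq2 called 1 macrophage and 1 erythroid marker. In these lists 1, 3, 2 and 3 markers, in the order given, had an unadjusted p under 0.05 by edgeR. Of the endothelial, cardiomyocyte and atrial markers edgeR called 0, and DESeq2 called 1 cardiomyocyte marker, in the lower direction. Unadjusted by edgeR, 2 endothelial and 2 cardiomyocyte markers were lower, 1 cardiomyocyte marker was higher and 0 atrial markers passed. The BAIBA rats exceeded all HFE rats for Angptl4 (log2 difference 2.00, SE 0.39, adjusted p = 0.156) and Pdk4 (1.57, SE 0.45, adjusted p = 0.351). DESeq2 called Angptl4 (adjusted p = 0.00698) and, in the lower direction, Plin2, a lipid droplet coat protein (log2 fold change -0.41, adjusted p = 0.0453), and Plin2, with Acot2 below, was named after its values were seen. Angptl4 was also called by DESeq2 in HFE against HF (-3.67, adjusted p = 0.00168), where edgeR gave -3.65 (SE 1.01, adjusted p = 0.627), and over the 4 groups (adjusted p = 0.000785 by DESeq2 and 0.325 by edgeR). Acot2, a mitochondrial thioesterase, was called by DESeq2 in BAIBA against Sham (0.44, adjusted p = 0.0164; 0.279 by edgeR). In the same comparison of BAIBA with HFE the receptors Ppara, Ppard and Pparg differed by -0.14 (SE 0.24), 0.17 (SE 0.20) and -0.24 (SE 0.24).

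The PGC-1 and ERR target genes (20 listed, 19 or 20 tested) included no called gene. Their median difference was -0.04 in HF against Sham, 0.02 in HFE against HF, -0.03 in BAIBA against HF and -0.02 in BAIBA against HFE, beside 0.0088, -0.0094, -0.0098 and 0.00049 over all genes. The 3 with the smallest p over the 4 groups were subunits of cytochrome c oxidase, and for all 3 the HFE group was the highest. Cox6a2, the muscle form of its subunit, was at 733 ± 45.1 CPM in the Sham, 749 ± 56.4 in the HF, 857 ± 52.7 in the HFE and 682 ± 58.8 CPM in the BAIBA group (adjusted p = 0.459). Cox4i1 was at 919 ± 80.6, 894 ± 24.5, 1037 ± 26.9 and 899.5 ± 60.9 CPM (adjusted p = 0.554), and Cox5a at 411 ± 21.9, 401 ± 10.5, 457 ± 13.0 and 390 ± 38.6 CPM (adjusted p = 0.568). In CPM the HFE rats lay above every rat of the other 3 groups for each of these genes. In FPKM they still lay above every HF and BAIBA rat but overlapped the Sham rats for all 3, for example with a lowest HFE value of 1655 FPKM for Cox6a2 against a highest Sham value of 1690.3. Of the 8 cardiomyocyte markers, 5 (Actc1, Tnnt2, Tnni3, Mb and Myl2, named after their values were seen) were also above HF in every HFE rat, beside groups without overlap in 14.4% of all genes. Myh6 and Ryr2 differed by -0.12 and -0.22 between HFE and HF, and the part of these markers in the cytochrome oxidase values was not tested.

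**Figure D4:**
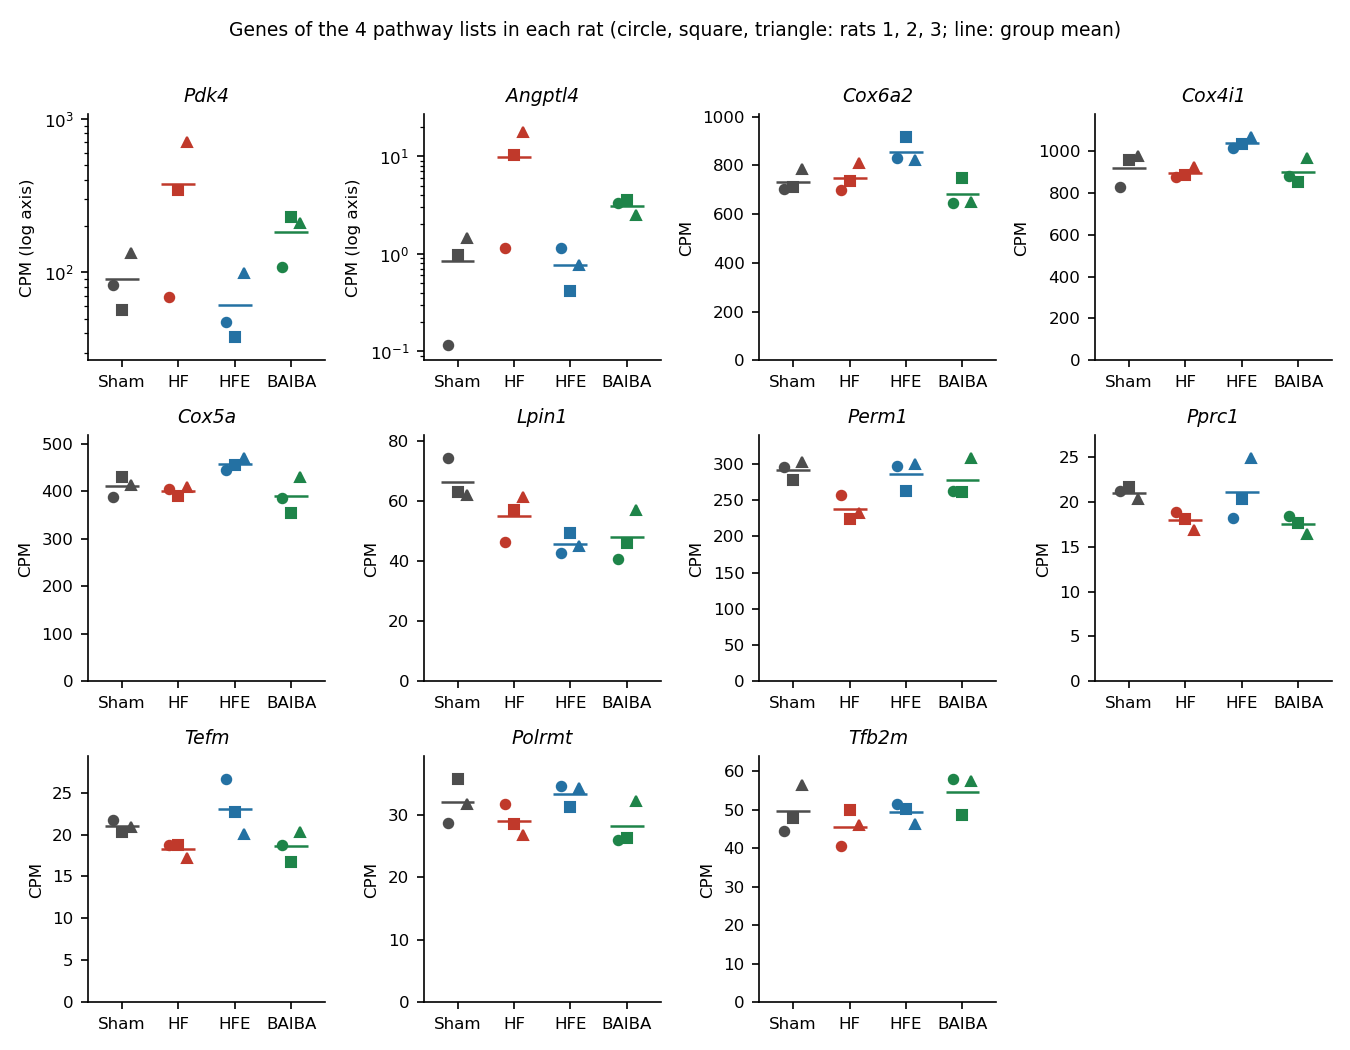
CPM of genes with the smallest p over the 4 groups from lists of PPAR targets, PGC-1 and ERR targets, partners and coregulators, and mitochondrial DNA factors, with 1 point per rat and a line at the mean of 3 rats (log axis for Pdk4 and Angptl4). HF rats 2 and 3 are the highest for Pdk4 (343 and 709 CPM) and Angptl4 (10.4 and 17.8 CPM), and the 3 HFE rats are the highest in CPM for Cox6a2, Cox4i1 and Cox5a, though they overlap the Sham rats in FPKM.

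Lastly, for each member the 2 genes with the most similar levels over the 12 rats were sought among 9278 genes with a mean of at least 5 CPM. The likeness is given as Pearson's r of log2 CPM over 12 rats, chosen as the highest of 9278 and with no test. Rxra was most like Mcu, the pore of the mitochondrial calcium uniporter (r = 0.94), and Tcaim, a mitochondrial protein (0.91). Ppargc1b was most like Ankrd28 (0.95) and Pdpk1, a kinase upstream of Akt (0.94). Ppargc1a was most like Ireb2, an iron-responsive RNA-binding protein (0.92), and Chrm2, the muscarinic receptor of the heart (0.90). Esrra was most like Ntmt1 (0.94) and Arhgef10l (0.94), and Esrrg was most like Ppp1cb (0.92) and Coa5, an assembly factor of cytochrome c oxidase (0.91). Ppara was nearest to Foxn3 (0.92) and Zgpat (0.82), Ppard to Psmd11 (0.92) and Zfyve9 (0.90), Pparg to Caskin2 (0.89) and Prr29 (0.87), Esrrb to Snrpb (0.87) and Podxl2 (0.83), and Tfam to Mcfd2 (0.89) and Scx (0.89).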

How the data were processed

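RNA from 12 left ventricles (4 groups of 3 rats, taken from the labels, where the BAIBA group has the title HF+Med and the treatment HF+BAIBA) was sequenced as oligo(dT) mRNA libraries. The authors used HISAT2 for alignment and StringTie for genes outside the annotation, and deposited raw counts per gene from featureCounts, and FPKM values that the authors computed from counts and gene length. Alignment used an orientation mode. Tool versions, the annotation and whether the counting used strand are not given in the sources used here. The submitters' processing notes list the mouse build mm9, whereas the gene identifiers are those of rat. Reads of antisense or overlapping genes may not be separable. The tables overlapped with 0 differing cells, and replicates differed beyond sampling noise.

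Deposited counts of 14812541 to 19732588 per rat were fitted for each pair of groups with edgeR 4.0.16 in R 4.3.3 (filterByExpr, TMM, robust quasi-likelihood test), with Benjamini-Hochberg adjustment over all genes and calls at an adjusted p of 0.05. SEs and 95% intervals come from the F statistics. CPM used TMM over 12 rats. Exact permutation tests were two-sided on log2(CPM + 0.1), and relations used 1296 orderings within groups. DESeq2 1.42.0, limma 3.58.1 on FPKM, other scalings and filters, a fold limit, a fit of all rats, the replicate block and leaving out each rat were alternatives. The scripts were tested on simulated data. Counting error is included in the spread between rats, and Pparg and Esrrb rested on the fewest counts (from 69 and 64 per rat).

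The 10 members and all lists were chosen with earlier results of these data known. From the lists, the called genes and the 3 with the smallest p over the 4 groups were named, and for likeness the 2 highest correlations. The result of 1 gene that this rule names is not reported here. Replicate numbers were taken to pair rats where every same-number pair had a correlation over 0.1, which held only in BAIBA against HFE (0.139 to 0.265). The main fit of that comparison was not paired.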

Additional observations from a re-analysis of the deposited data

How the results depend on the processing

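Under all alternatives no member gained or lost a call. Of 960 refitted differences of a member, 880 had the same direction and 80 changed sign, with a lowest adjusted p of 0.712 among those 80 and of 0.259 among all. No scaling moved the median of all genes by more than 0.1 on the log2 scale. Leaving out 1 rat at a time changed the sign of small differences. In HF against Sham the range was -0.36 to 0.35 for Ppara, -0.026 to 0.21 for Ppard, -0.37 to 0.012 for Ppargc1a, -0.0999 to 0.30 for Ppargc1b, -0.11 to 0.11 for Esrra and -0.23 to 0.28 for Esrrb. In HFE against HF the range was -0.11 to 0.26 for Ppara, -0.31 to 0.15 for Pparg, -0.0997 to 0.087 for Ppargc1a, -0.25 to 0.063 for Ppargc1b, -0.18 to 0.42 for Esrrb, -0.022 to 0.0957 for Esrrg and -0.036 to 0.14 for Rxra. In BAIBA against HF the range was -0.26 to 0.13 for Ppara, -0.14 to 0.20 for Ppard, -0.20 to 0.19 for Ppargc1a, -0.028 to 0.30 for Esrra, -0.48 to 0.051 for Esrrb, -0.067 to 0.12 for Esrrg and -0.0041 to 0.12 for Tfam. In BAIBA against HFE the range was -0.38 to 0.084 for Ppara, -0.43 to 0.035 for Pparg, -0.21 to 0.17 for Ppargc1a, -0.29 to 0.056 for Esrra and -0.12 to 0.067 for Esrrg. In HFE against Sham the range was -0.24 to 0.48 for Ppara, -0.20 to 0.073 for Ppard, -0.36 to 0.017 for Ppargc1a, -0.18 to 0.20 for Ppargc1b, -0.12 to 0.41 for Esrrb and -0.18 to 0.047 for Rxra. In BAIBA against Sham the range was -0.38 to 0.33 for Ppara, -0.058 to 0.29 for Ppard, -0.40 to 0.013 for Ppargc1a, -0.38 to 0.012 for Ppargc1b and -0.064 to 0.27 for Esrra. The other sign changes were as follows. Ppara in HF against Sham was 0.059 with the replicate block, 0.040 in limma on log2(FPKM + 1) with or without a filter, and 0.055 with a pseudocount of 0.1. Ppara in BAIBA against Sham was 0.014 with the block, 0.014 in limma with or without a filter and 0.025 with 0.1. In limma, Esrrb in HF against Sham was -0.0035, with or without a filter, and -0.015 with 0.1. Ppargc1a in HFE against HF was -0.033 by library size only, -0.019 in limma with or without a filter and -0.020 with 0.1. In BAIBA against HFE, Ppargc1a was 0.0045 by library size only, and Esrrg was 0.041 by library size, 0.030 in limma with or without a filter and 0.032 with 0.1. Tfam in HFE against Sham was -5.4e-06 in limma with 0.1.

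The count of all genes called depended on the tool and filter, and the cause was not tested. DESeq2 called 52 in HF against Sham, 46 in HFE against HF, 38 in BAIBA against HF, 327 in BAIBA against HFE, 168 in HFE against Sham, 121 in BAIBA against Sham and 335 over the 4 groups, of which 0, 1, 0, 3, 1, 1 and 1 were genes of the 4 lists. With no filter beyond 1 count edgeR called 2, 2, 50, 72, 41 and 2 in the same order from HFE against HF on, and 1 list gene, Lpin1 in HFE against Sham. With at least 10 counts in every library it called 1 in BAIBA against HF, 2 in BAIBA against Sham and 1 over the 4 groups. The fit of all 12 rats called 1, 3 and 0 in BAIBA against HF, HFE and Sham, and library size only gave 7 in BAIBA against HFE and 4 over the groups. The replicate block called 50 in BAIBA against HFE, 1 in HFE against Sham and 5 over the groups, and changed no other call. Limma called 2 in BAIBA against HFE (3 with 0.1 and 2 without a filter), 3 in BAIBA against Sham (2 without a filter) and, over the groups, 5 with 0.1 and 1 without a filter. HFE against HF had 0 members without overlap in library-size CPM and in FPKM. In HF against Sham, Esrrg also had groups without overlap in FPKM. By the median in place of the mean, 2 members swapped places in the order of levels. With 1 rat left out, the count of all genes called was 0 to 4 (without HF rat 1) in HF against Sham, 0 to 4 (without HF rat 1) in BAIBA against HF, 3 (without HFE rat 1) to 28 (without BAIBA rat 1) in BAIBA against HFE, 0 to 9 (without HFE rat 3) in HFE against Sham, 4 (without Sham rat 1) to 16 (without BAIBA rat 2) in BAIBA against Sham and 0 to 10 (without HF rat 1) over the 4 groups.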
